A study of Mus musculus with 93 samples.

Results

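Posterior eyecups of Efemp1ki/ki mice were compared at 9 and at 3 months of age. The members are the 16 eyecup libraries whose titles give that genotype and those ages, 8 at 9 months and 8 at 3 months, out of 93 libraries in the series. Every mouse was female and untreated, and all 16 libraries carry the homozygous Efemp1 knock-in, which models Doyne honeycomb retinal dystrophy. Wild-type eyecups at 9 months (8 libraries) and at 3 months (6 libraries) were used for the difference between genotypes, and 7 Efemp1ki/ki eyecups at 17 months as a later level. The eyecup is described in the series as the eye from which lens and retina were taken away. Whether each library came from its own mouse is not stated, so the p-values rest on spread among libraries, part of which may be technical.

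Efemp1 encodes fibulin-3, a secreted protein of elastic fibres and basement membranes. A dominant change of the human protein causes deposits beneath the retinal pigment epithelium, the cell layer that supports the photoreceptors. The rest of the eyecup is largely connective tissue: sclera, choroid and, where it is kept, cornea. Alternative complement, of which factor B (Cfb) is the activating protease, is the arm of innate immunity most often linked to such deposits.

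Library totals ran from 14572614 to 27701773 estimated counts over the 16 libraries. Levels below are CPM (counts relative to library size, with TMM scaling between libraries), and changes are log2 fold changes of 9 over 3 months from edgeR's quasi-likelihood test, and a gene counts as called where its Benjamini-Hochberg adjusted p is below 0.05. Marker sums checked the tissue. Retinal pigment epithelium genes summed to between 1652 and 2448 CPM at 9 months and between 1769 and 3442 CPM at 3 months. Corneal and conjunctival epithelium genes summed to between 27047 and 63573 CPM at 9 months, against 45205 to 58913 CPM at 3 months, so the eyecups held ocular surface as well as posterior tissue. Rod photoreceptor genes, typical of retina, summed to between 629 and 15572 CPM at 9 months and between 3193 and 15405.5 CPM at 3 months. Lens genes stayed between 5.85 and 232 CPM in all 16 libraries.

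The 3-month libraries differed from the 9-month ones in how counts depended on the GC content of the transcript. The GC trend, the slope of a library's log2 deviation from the mean of all eyecups per 10 percentage points of GC, averaged -0.0956 ± 0.115 at 9 months and 0.233 ± 0.270 at 3 months (SD, n = 8 each; exact permutation test, two-sided, p = 0.000932, adjusted p = 0.0028 over 3 library measures). All 8 values at 3 months lay above 0, from 0.0471 to 0.815, while those at 9 months ran from -0.259 to 0.107. Libraries 3 and 4 at 3 months, at 0.442 and 0.815, were the steepest, both over 3 scaled median absolute deviations from the median of all 45 eyecups. In wild-type eyecups the trend averaged -0.124 ± 0.0660 at 9 months and -0.0679 ± 0.0249 at 3 months (SD, n = 8 and 6). At 17 months Efemp1ki/ki eyecups averaged 0.0909 ± 0.120 (SD, n = 7). Mitochondrially encoded genes, whose transcripts are GC-poor, took 8.16 ± 2.61% of counts at 9 months and 4.13 ± 2.58% at 3 months (exact permutation p = 0.00932, adjusted p = 0.0140). For this reason calls below were set against 2 further fits, with GC offsets per library and without libraries 3 and 4 of the 3-month group (the steep libraries), and calls lost there are named. Values are from the fit with all libraries unless stated. The labels give no preparation batch, so how the libraries came to differ cannot be told apart from age.

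**Figure D1:**
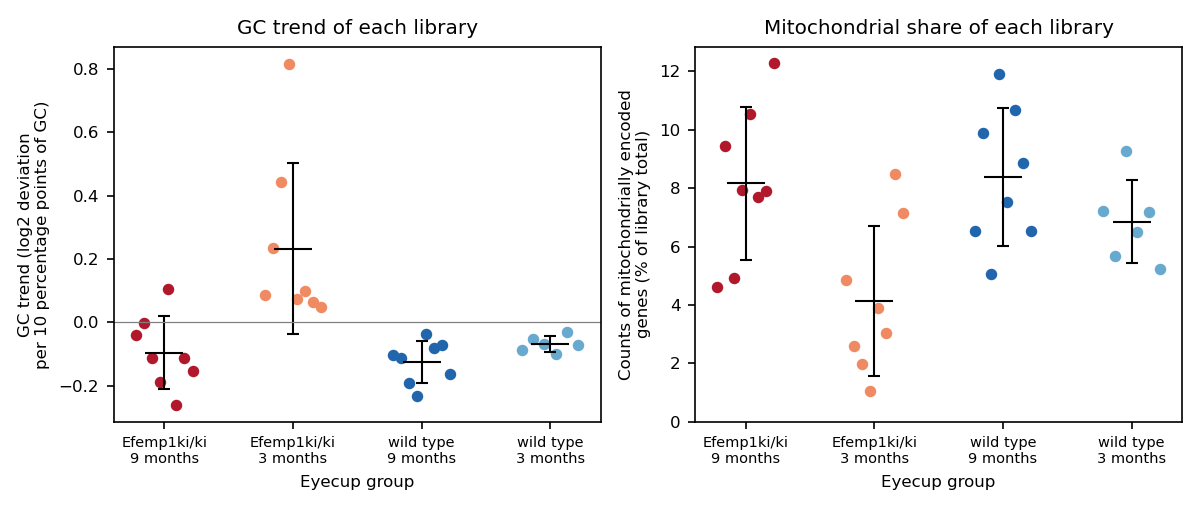
GC trend (left, log2 deviation per 10 percentage points of GC) and share of counts from mitochondrially encoded genes (right, percent) in each library of 4 eyecup groups; points are libraries, the horizontal bar is the mean and the whiskers are 1 SD. All 8 Efemp1ki/ki libraries at 3 months lie above 0 on the left, the highest at 0.815, and 3-month libraries average 4.13% on the right, against 8.16% at 9 months.

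Stretches of coding sequence from 1 gene that was higher and 2 that were lower at 9 months show how far apart such transcripts lie in base composition. Each is the central 120 bases of the longest coding exon, read 5′ to 3′ on the coding strand from GENCODE M21 transcripts (GRCm38), with G and C in capitals. Zfp943 lies at chr17:21992714-21992833 (plus strand, exon 4), Igfbp2 at chr1:72824712-72824831 (plus strand, exon 1) and Col1a1 at chr11:94950372-94950491 (plus strand, exon 48).
Zfp943: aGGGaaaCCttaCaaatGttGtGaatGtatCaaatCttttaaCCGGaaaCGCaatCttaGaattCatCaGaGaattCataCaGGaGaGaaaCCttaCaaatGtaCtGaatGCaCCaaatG
Igfbp2: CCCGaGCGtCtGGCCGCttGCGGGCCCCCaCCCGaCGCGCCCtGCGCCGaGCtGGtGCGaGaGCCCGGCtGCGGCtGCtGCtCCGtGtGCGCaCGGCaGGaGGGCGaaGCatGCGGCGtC
Col1a1: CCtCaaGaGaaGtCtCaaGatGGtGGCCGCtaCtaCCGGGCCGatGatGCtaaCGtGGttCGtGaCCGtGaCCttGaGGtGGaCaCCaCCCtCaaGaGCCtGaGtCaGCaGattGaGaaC
The whole transcripts hold 37.1% GC for Zfp943, 62.1% for Igfbp2 and 58.9% for Col1a1.

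Over all libraries, 2624 of 18003 genes (14.6%) differed between 9 and 3 months, 1250 higher (6.94%) and 1374 lower (7.63%) at 9 months. Genes higher at 9 months had a median GC content of 40.9%, genes lower 56.3%, and all tested genes 49.7%. Of the 1155 genes under 40% GC, 41.0% were called higher and 0.173% lower. Of the 762 genes over 60% GC, none were called higher and 28.9% were called lower. With GC offsets 371 genes passed (2.06%), 157 higher (0.872%) and 214 lower (1.19%). Without the 2 steep libraries 428 of 17912 passed (2.39%), 229 higher (1.28%) and 199 lower (1.11%). Called in the same direction by all 3 fits were 156 genes (0.867%), 86 higher (0.478%) and 70 lower (0.389%). The descriptions below also cover genes and lists called with all libraries but outside this set. With GC offsets and without the steep libraries together, 83 genes passed. That fit called 18 of the 86 higher and 45 of the 70 lower genes. A gene described below as passing in all 3 fits therefore need not pass in that one. By edgeR there, Angptl7 passed (adjusted p = 0.0035), while Aqp4 (adjusted p = 0.0827) and Aqp1 (adjusted p = 0.106) did not. Leaving out the steep libraries did not remove the GC dependence. Across genes the Spearman correlation of fold change with GC content was -0.593 with all libraries, -0.384 without the steep libraries and 0.002 with GC offsets. The offsets were fitted on this same GC content, so a value near 0 there follows from their construction. In 79 genes (0.439%) every 9-month library lay above every 3-month library, and in 103 genes (0.572%) below.

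**Figure D2:**
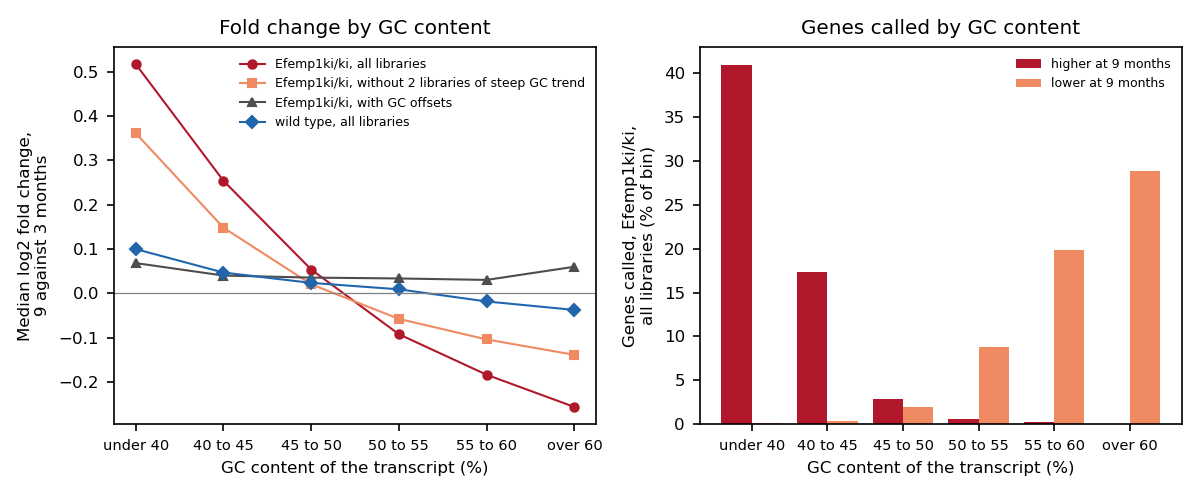
Median log2 fold change of 9 over 3 months by transcript GC content (left, percent) in the 3 Efemp1ki/ki fits and in wild type, and the share of genes called in each bin with all Efemp1ki/ki libraries (right, percent of the bin). With all libraries the median runs from 0.52 under 40% GC to -0.26 over 60%. With GC offsets it stays between 0.03 and 0.07, which follows from fitting the offsets on the same GC content.

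Efemp1 itself (ENSMUSG00000020467.15, chromosome 11, 28853204 to 28926743 in GRCm38), the modified gene, was transcribed at like levels at both ages. Its libraries held 183, 246 and 301 CPM (lowest, median and highest) at 9 months, against 138, 250 and 279 CPM at 3 months, and the ranges overlapped. The log2 fold change was 0.07 ± 0.14 (SE, adjusted p = 0.803), with a sign that turned with GC offsets (-0.05) and without the steep libraries (-0.04). A knock-in need not alter transcript amount, so this did not check the genotype label.

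Genes of extracellular matrix and cornea were prominent among the decreases at 9 months. In bulk tissue fewer cells of a type and less RNA per cell cannot be told apart. Igfbp2 (ENSMUSG00000039323.18, chromosome 1, 72824503 to 72852474), which encodes a secreted binding protein of insulin-like growth factors, measured 82.3, 109 and 132 CPM at 9 months, against 250, 292 and 365 CPM at 3 months (log2 fold change -1.51 ± 0.16, adjusted p = 1.22e-07). Npnt (ENSMUSG00000040998.18, chromosome 3, 132881745 to 132950291), encoding the integrin ligand nephronectin, measured 12.4, 15.9 and 20.8 CPM at 9 months and 32.0, 40.5 and 47.9 CPM at 3 months (-1.29 ± 0.15, adjusted p = 7.38e-07). In both genes the age groups did not overlap. Matn4, the matrix adaptor matrilin-4, held 6.91 to 12.2 CPM at 9 months, against 19.1 to 29.9 CPM at 3 months (-1.34 ± 0.17). Frem3, of a family of basement membrane proteins, was low at 1.07 to 2.84 CPM at 9 months, against 5.48 to 10.1 CPM at 3 months (-2.20 ± 0.32). The transcription factor genes Pou3f3 (-0.93 ± 0.13) and Irx3 (-0.78 ± 0.12) fell as well. All 6 genes passed in all 3 fits.

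Genes of fibrillar collagen and its processing were called mostly in 1 direction. Of 34 tested members 10 were lower (29.4%, beside 7.63% of all genes) and 1 higher (median -0.29, against 0.02 over all genes), with 3 lower under GC offsets and 4 lower without the steep libraries. Col1a1 (ENSMUSG00000001506.10, chromosome 11, 94936224 to 94953042), the alpha 1 chain of type I collagen, measured 166, 206 and 287 CPM at 9 months, against 420, 540 and 675 CPM at 3 months (-1.35 ± 0.20, adjusted p = 4.73e-05). Col1a2, its partner chain, measured 192, 246 and 374 CPM at 9 months, against 416, 523 and 687 CPM at 3 months (-1.01 ± 0.20). Neither gene's age groups overlapped, and both passed in all 3 fits. Plod1, a collagen lysyl hydroxylase (-0.51 ± 0.12), fell without passing when the steep libraries were left out, and Sparc, a collagen-binding glycoprotein (-0.48 ± 0.11), fell without passing under GC offsets.

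Among 30 other collagen genes 8 were lower (26.7%, beside 7.63% of all genes) and none higher (median -0.28). Under GC offsets 4 were lower, and without the steep libraries 6. Col12a1, which decorates collagen fibrils, measured 46.6, 67.3 and 102 CPM at 9 months, against 142, 146 and 177 CPM at 3 months (-1.11 ± 0.15, adjusted p = 2.71e-05). Col6a3 (-0.95 ± 0.19) and Col6a2 (-0.86 ± 0.17), chains of microfibrillar type VI collagen, and Col8a2 (-1.22 ± 0.21), of the type VIII collagen of Descemet's membrane, fell in all 3 fits. Of 19 elastic fibre and fibulin genes, the family of Efemp1, 4 were lower (21.1%) and none higher (median -0.20), with 1 lower under GC offsets and 2 without the steep libraries. Mfap4, a microfibril-associated glycoprotein, passed all 3 at 22.8, 28.8 and 49.6 CPM at 9 months, against 54.3, 59.8 and 68.0 CPM at 3 months (-0.96 ± 0.19). The microfibril genes Emilin1 (-0.57 ± 0.14) and Mfap2 (-0.57 ± 0.14) fell with all libraries and did not pass under GC offsets, Mfap2 in neither other fit. Matrix proteases and their inhibitors had 2 of 21 lower (9.52%, near the share of all genes) and none higher (median 0.10), and none passed in the other fits.

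Some genes of the corneal stroma and endothelium were among the decreases. Of 16 genes of small leucine-rich proteoglycans and stroma 2 were lower (12.5%, beside 7.63% of all genes) and none higher (median -0.07). In each other fit 1 of them was lower. After the data were seen 3 lists were added. In 1 of these, of 10 trabecular meshwork genes, 1 was higher and 1 lower (10% each, median -0.06). The added lists were chosen with these results known, so their shares are descriptions only. In a list of 12 keratocyte genes, added after the data were seen, 3 were lower (25.0%, beside 7.63% of all genes) and none higher (median -0.26). The same count passed in the other fits. Chst5 (ENSMUSG00000031952.5, chromosome 8, 111889136 to 111910447), which sulfates the keratan sulfate of the mouse cornea, measured 2.75, 3.42 and 6.13 CPM at 9 months, against 12.2, 16.8 and 21.7 CPM at 3 months (-2.13 ± 0.25, adjusted p = 7.38e-07). Kera, encoding the corneal proteoglycan keratocan, measured 21.6, 27.3 and 55.8 CPM at 9 months, against 36.2, 77.2 and 109 CPM at 3 months (-1.21 ± 0.27), and here the groups overlapped. Angptl7, a secreted protein of cornea and trabecular meshwork, measured 17.2, 23.2 and 39.7 CPM at 9 months, against 50.5, 74.9 and 86.2 CPM at 3 months (-1.45 ± 0.23). Of 12 corneal endothelium genes, a list also added after the data were seen, 4 were lower (33.3%) and none higher (median -0.22), again in all 3 fits. They were Slc4a11, a membrane transporter mutated in human corneal endothelial dystrophy, Col8a2, the water channel gene Aqp1, and Lmx1b, a transcription factor of anterior segment development. Slc4a11 measured 15.8, 19.2 and 33.6 CPM at 9 months, against 53.6, 74.9 and 109 CPM at 3 months (-1.77 ± 0.27, adjusted p = 0.000104). Summed, the keratocyte genes held 7339 to 16028 CPM at 9 months, against 12575 to 17460.5 CPM at 3 months, and of 21 corneal and conjunctival epithelium genes none passed, with 4 at an unadjusted p under 0.05. Summed, the corneal endothelium genes held 1240 to 1592 CPM at 9 months, against 1655 to 1869 CPM at 3 months, with no overlap. This sum includes the 4 called genes of a list chosen after the data were seen, so its separation is a description only. The part of tissue share in these decreases was not tested.

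**Figure D3:**
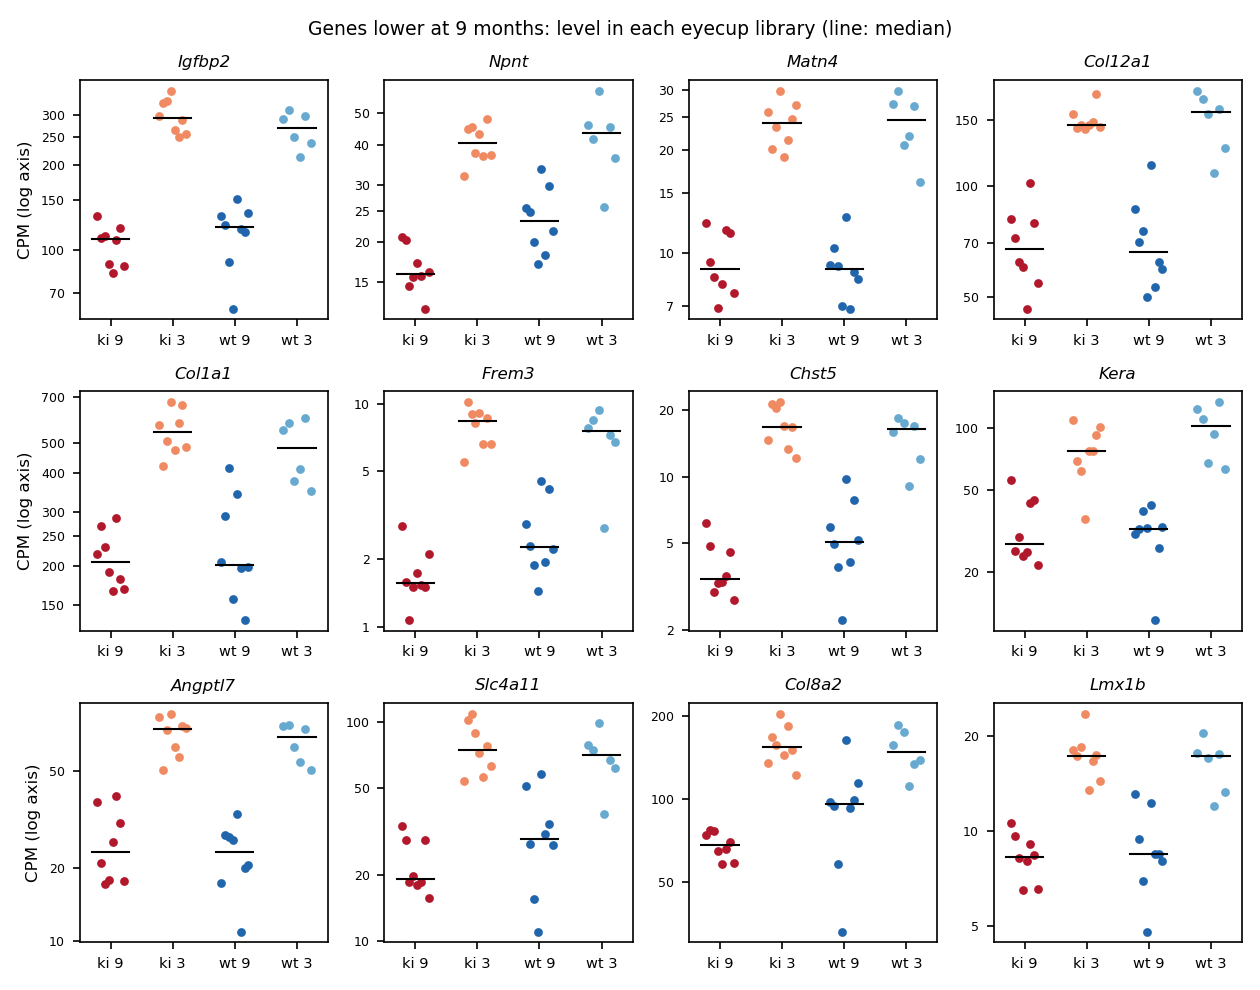
CPM (log axis) of 12 genes lower at 9 months in each eyecup library of Efemp1ki/ki (ki) and wild-type (wt) mice at 9 and 3 months; points are libraries and lines are medians. In the Efemp1ki/ki groups 11 of the 12 genes have every 9-month library under every 3-month one, Kera being the exception. The share over all genes is 0.572%, and these 12 were picked from the decreases, so their separation is a description only. The wild-type medians at 9 months are lower too.

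Wnt genes were also called in 1 direction. Of 28 Wnt ligand and antagonist genes, a pathway active in eye growth, 11 were lower (39.3%, beside 7.63% of all genes) and none higher (median -0.42), with 3 lower under GC offsets and 5 without the steep libraries. Wnt5a, a ligand acting without beta-catenin, measured 16.6, 20.4 and 27.3 CPM at 9 months, against 29.0, 31.8 and 38.0 CPM at 3 months (-0.62 ± 0.13), and passed in all 3 fits. The ligand genes Wnt3a (-0.72 ± 0.17) and Wnt10a (-0.67 ± 0.16) and the inhibitor gene Nkd1 (-0.46 ± 0.10) fell but did not pass under GC offsets. Of 34 cell proliferation genes none passed in any of the 3 fits (median -0.17), and 2 had an unadjusted p under 0.05 by edgeR with all libraries. Of 21 immediate early genes 3 were lower (14.3%), among them the AP-1 subunit gene Jund (-0.72 ± 0.14, 67.1% GC), with none under GC offsets and 1 without the steep libraries.

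Cytosolic ribosomal protein genes were lower in 12 of 61 (19.7%, beside 7.63% of all genes) and higher in none (median -0.26). Under GC offsets 3 were lower, and without the steep libraries 1. Rpl10a passed in all 3 fits at 109, 143 and 184 CPM at 9 months, against 157, 216 and 260 CPM at 3 months (-0.58 ± 0.13). Rps23 (-0.59 ± 0.14) did not pass without the steep libraries. Both have processed copies in the genome, so their reads are uncertain. Among 15 Schwann cell and myelin genes 5 were lower (33.3%, beside 7.63% of all genes) and none higher (median 0.19). None passed in the other fits, and the list had a median GC content of 53.6%, against 49.7% over all tested genes. The myelin protein genes Cnp (-0.60 ± 0.15) and Mag (-0.61 ± 0.17) were among the 5.

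Among the named genes higher at 9 months, Slc18a2 and Fgf2 had the smallest p, and both passed in all 3 fits. Slc18a2 (ENSMUSG00000025094.7, chromosome 19, 59260878 to 59296012), the vesicular monoamine transporter, measured 2.84, 4.36 and 6.42 CPM at 9 months, against 1.17, 2.01 and 2.56 CPM at 3 months (1.16 ± 0.17, adjusted p = 4.73e-05), with no overlap. Fgf2, a basic fibroblast growth factor, measured 23.6, 27.2 and 32.0 CPM at 9 months, against 12.8, 17.3 and 24.3 CPM at 3 months (0.68 ± 0.11), with 6 of 8 libraries above the highest 3-month one. Its transcript is GC-poor at 42.2%, and its fold was 0.44 with GC offsets. The imprinted zinc finger gene Plagl1 (ENSMUSG00000019817.18, chromosome 10, 13060504 to 13131694) was the only member of 21 imprinted growth genes called higher, and 1 other was called lower with GC offsets alone. It measured 8.68, 13.9 and 23.2 CPM at 9 months, against 5.28, 6.95 and 9.45 CPM at 3 months (0.99 ± 0.18, adjusted p = 0.00104). Cpeb1, which controls cytoplasmic polyadenylation, rose by a smaller step (0.47 ± 0.08). Its fold was 0.47 under GC offsets too, its transcript being near the median at 48.2% GC.

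Further increases were in GC-poor genes and shrank with GC offsets. Aqp4, a water channel, was at 0.54 ± 0.10 with all libraries and 0.25 with GC offsets, the ferroxidase gene Cp at 0.58 ± 0.10 and 0.33, and the splicing factor gene Zranb2 at 0.59 ± 0.10 and 0.26. Txlng, encoding a taxilin, was at 0.93 ± 0.15 and 0.47. The clock gene Nr1d2, the only called member of 20 clock genes, was at 0.61 ± 0.12 and 0.35. These 5 passed in all 3 fits. Ppp3cb, a catalytic subunit of calcineurin, was at 0.70 ± 0.13 and 0.33 and did not pass with GC offsets.

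Most mitochondrially encoded genes and many zinc finger genes, both GC-poor, were called higher with all libraries, and few or none with GC offsets. Of 9 mitochondrially encoded genes 7 were higher (77.8%, beside 6.94% of all genes) and none lower (median 1.03), and none passed under GC offsets or without the steep libraries. The subunit gene mt-Nd2 of respiratory complex I measured 1586, 4111 and 7130 CPM at 9 months, against 393, 1316 and 3437 CPM at 3 months (1.32 ± 0.34), and mt-Nd4 (1.17 ± 0.32), mt-Nd1 (1.03 ± 0.29) and the ATP synthase gene mt-Atp6 (1.27 ± 0.34) stood alike. Their median stayed at 0.63 under GC offsets. Of 36 nuclear genes of oxidative phosphorylation none passed (median 0.05), with 1 at an unadjusted p under 0.05. Of 43 KRAB zinc finger genes, transcriptional repressors of transposable elements with a median of 39.6% GC, 21 were higher (48.8%) and none lower (median 0.45), with 2 higher under GC offsets and 4 without the steep libraries. Zfp943 (1.19 ± 0.19) and Zfp729a (0.95 ± 0.20) passed in all 3 fits. Zfp950 (1.03 ± 0.20) and Zfp709 (0.78 ± 0.18) did not pass under GC offsets, Zfp709 in neither other fit. These genes have close relatives in the genome, so their reads are uncertain.

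Immune genes made up a smaller group of increases. Of 26 classical and alternative complement genes 5 were higher (19.2%, beside 6.94% of all genes) and none lower (median 0.14), with 3 higher under GC offsets and none without the steep libraries. C3 (ENSMUSG00000024164.15, chromosome 17, 57203970 to 57228136), the central component, measured 80.4, 134 and 149 CPM at 9 months, against 56.7, 72.1 and 105 CPM at 3 months (0.75 ± 0.20, adjusted p = 0.0103), with 7 of 8 libraries above the highest 3-month one. Cfb (ENSMUSG00000090231.10, chromosome 17, 34856374 to 34862518) measured 12.2, 17.0 and 35.8 CPM at 9 months, against 7.78, 10.3 and 15.1 CPM at 3 months (0.79 ± 0.21, adjusted p = 0.0108), and the groups overlapped. Without the steep libraries the folds were 0.70 for C3 (adjusted p = 0.0709) and 0.74 for Cfb (adjusted p = 0.0704), near those of all libraries. The receptor genes C3ar1 (0.77 ± 0.21) and Itgax (0.63 ± 0.18), which encodes the CD11c integrin of myeloid cells, also passed with all libraries. C3ar1 passed in neither other fit (adjusted p = 0.123 with GC offsets and 0.126 without the steep libraries), and Itgax did not pass without the steep libraries (adjusted p = 0.0640).

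Of 18 macrophage and microglia genes 2 were higher (11.1%, near the 6.94% of all genes) and none lower (median 0.25), with 1 higher under GC offsets and none without the steep libraries. Lyz2, the lysozyme of macrophages, measured 130, 175 and 191 CPM at 9 months, against 60.7, 96.6 and 170 CPM at 3 months (0.70 ± 0.18), and Adgre1, the F4/80 antigen, 5.88, 8.72 and 9.15 CPM, against 2.53, 5.66 and 7.12 CPM (0.60 ± 0.17). Lyz2 passed under GC offsets and Adgre1 did not, and neither passed without the steep libraries. The marker genes of this list summed to between 402 and 553 CPM at 9 months, against 337 to 545 CPM at 3 months. Cxcl13, the chemokine that attracts B cells, passed in all 3 fits at 1.45, 3.51 and 6.01 CPM at 9 months, against 0.429, 0.732 and 2.47 CPM at 3 months (1.97 ± 0.40, adjusted p = 0.00178). The antibody genes Jchain (1.91 ± 0.43) and Ighm (1.23 ± 0.37) were the 2 higher of 10 B and plasma cell genes, with 1 lower. Under GC offsets Ighm passed and Jchain did not (adjusted p = 0.0635), and without the steep libraries Jchain passed and Ighm did not (adjusted p = 0.103), with no other member called in either fit. Jchain measured 0.483 to 4.20 CPM at 9 months, against 0.267 to 1.22 CPM at 3 months. Ighm lost its call without 9-month library 2 (0.88, adjusted p = 0.0806).

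Interferon-induced genes were higher in 8 of 33 (24.2%, beside 6.94% of all genes) and lower in 1 (median 0.29) with all libraries. Under GC offsets 1 was higher, and without the steep libraries none. The count of 8 rested on 9-month library 7. Without that library none of the 33 were higher and 1 was lower (median 0.03). Mx1, an antiviral GTPase, stood at 14.2 CPM in library 7 and between 1.19 and 2.80 CPM in the other 9-month libraries, against 0.867 to 1.51 CPM at 3 months. Its log2 fold change was 1.44 ± 0.38 with that library and 0.46 without it (adjusted p = 0.203). Ifi44, another interferon target, was at 1.34 ± 0.37 with that library and 0.88 without it (adjusted p = 0.0637). The same library held the highest Ccl7, a monocyte chemokine (1.74 ± 0.47 with it, 0.76 and adjusted p = 0.152 without it), and the highest Muc5b, a mucin of surface epithelium (3.51 ± 1.01 with it, 1.53 and adjusted p = 0.233 without it). Of 19 inflammatory cytokine genes 4 were higher and 2 lower (median 0.13) with library 7, and 1 was higher and 1 lower without it. None of the 19 passed with GC offsets or without the steep libraries. Mx1 and Muc5b passed with GC offsets but not without the steep libraries, and Ifi44 and Ccl7 passed in neither. Vcam1, an adhesion molecule of inflamed vessels, was called with all libraries (0.52 ± 0.13) but in neither other fit (0.16 with GC offsets).

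**Figure D4:**
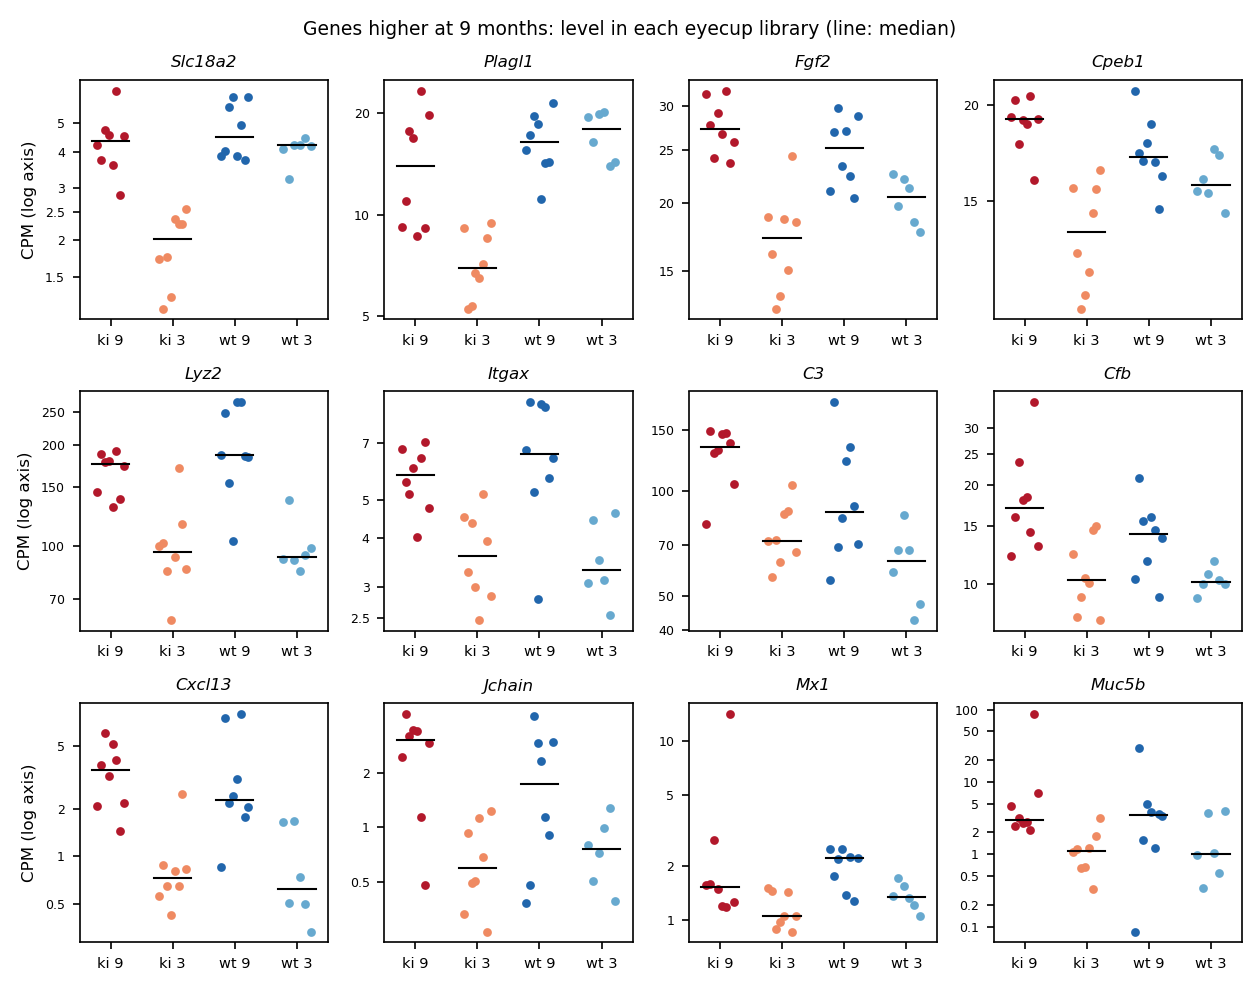
CPM (log axis) of 12 genes higher at 9 months in each eyecup library of Efemp1ki/ki (ki) and wild-type (wt) mice at 9 and 3 months; points are libraries and lines are medians. Slc18a2 and Plagl1 are low in the Efemp1ki/ki 3-month libraries and near 4 and 17 CPM in wild type at either age, and single libraries stand at 14.2 CPM for Mx1 and 87.6 CPM for Muc5b.

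Retinal pigment epithelium is the layer beneath which deposits form in the disease. Of 18 of its genes none passed in the other fits. With all libraries 1 was lower (5.56%, below the 7.63% of all genes) and none higher (median -0.19). The 1 was Ttr, the carrier of thyroid hormone and retinol-binding protein (-0.72 ± 0.23), whose call was lost without 3-month library 2 (-0.65, adjusted p = 0.0616), 3-month library 4 (-0.67, adjusted p = 0.0564), 9-month library 6 (-0.70, adjusted p = 0.0540) or 9-month library 8 (-0.68, adjusted p = 0.0598). No member passed among 28 skeletal muscle genes (median 0.13), 19 rod genes (0.18), 12 cone genes (0.46), 24 endothelial and pericyte genes (-0.02) or 12 adipocyte genes (0.78). By edgeR with all libraries 4 endothelial and pericyte genes, and none of the other 4 lists, had an unadjusted p under 0.05. Spread between eyecups was wide, with muscle genes summing to 4572 to 34812 CPM at 9 months and 8284 to 34269 CPM at 3 months.

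Whether the age difference depended on genotype was tested directly as the difference between the knock-in and wild-type changes. None of 18003 genes (0%) passed by edgeR, where 1265 had an unadjusted p under 0.05. With GC offsets edgeR again called none, and 508 had an unadjusted p under 0.05. Without the steep libraries it called none of 17912, and 502 had an unadjusted p under 0.05. DESeq2 called none as well, with 1439 at an unadjusted p under 0.05, and limma voom with quality weights called 1044. In wild type alone 34 genes (0.189%) passed, 6 higher (0.0333%) and 28 lower (0.156%) at 9 months. Of the 70 genes lower in the knock-in by all 3 fits, all 70 had a negative wild-type estimate, with a median of -0.88 in Efemp1ki/ki and -0.69 in wild type, and 23 were also called in wild type. Of the 86 genes higher, 82 had a positive wild-type estimate, with medians of 0.75 in Efemp1ki/ki and 0.19 in wild type, and 1 was called there. With GC offsets these medians were 0.46 and 0.12. The members were chosen on the Efemp1ki/ki contrast, so its medians are a description. Over all genes 54.4% of wild-type estimates were positive. The smallest unadjusted p of the test of difference among named genes were those of Plagl1 (0.000277) and Slc18a2 (0.000488), each with adjusted p = 0.659. Plagl1 averaged 14.4 ± 5.64 CPM at 9 months and 7.28 ± 1.62 CPM at 3 months in Efemp1ki/ki, and 16.5 ± 3.36 CPM at 9 months and 17.3 ± 2.82 CPM at 3 months in wild type (SD, n = 8, 8, 8 and 6). Slc18a2 averaged 4.32 ± 1.05 CPM at 9 months and 1.93 ± 0.52 CPM at 3 months in Efemp1ki/ki, and 4.80 ± 1.06 CPM at 9 months and 4.06 ± 0.42 CPM at 3 months in wild type. These levels carry no GC offsets, while the GC trend at 3 months averaged 0.233 in Efemp1ki/ki and -0.0679 in wild type.

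**Figure D5:**
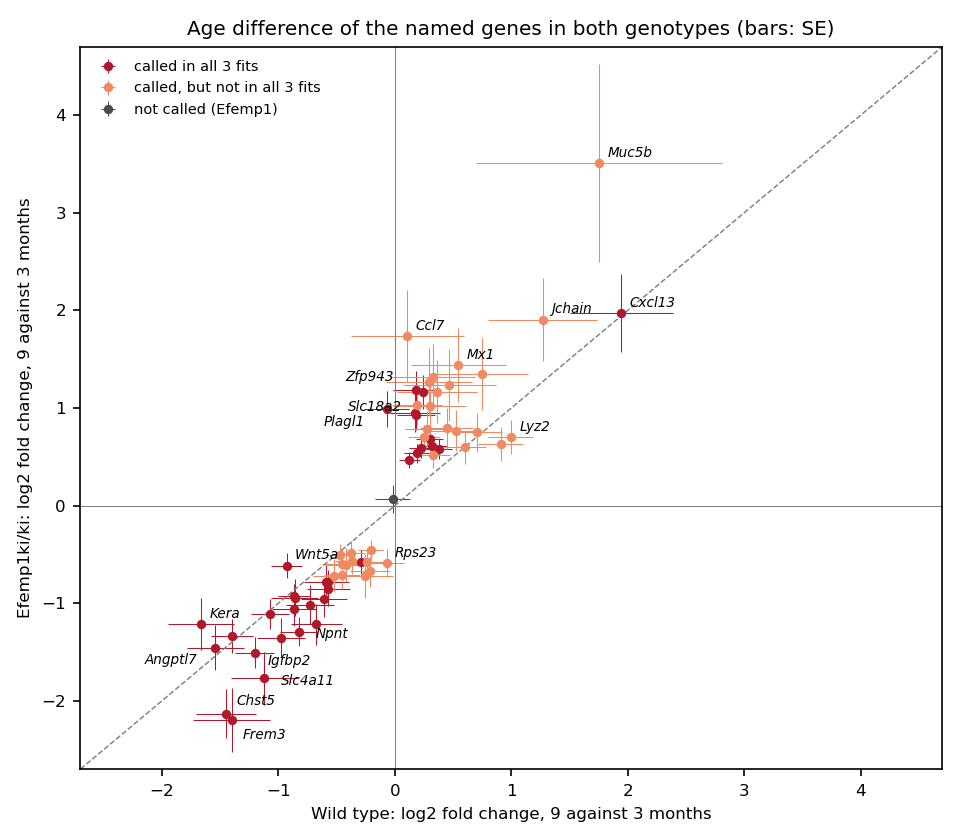
Log2 fold change of 9 over 3 months of the named genes in Efemp1ki/ki (vertical) and wild-type eyecups (horizontal), with bars of 1 SE, the dashed line of equal change, and colour by how many Efemp1ki/ki fits call the gene. Decreases such as Igfbp2 (-1.51 and -1.20) lie near the line, and increases differ: Plagl1 (0.99 and -0.07) and Slc18a2 (1.16 and 0.24) lie above it, Cxcl13 (1.97 and 1.95) and C3 (0.75 and 0.71) near it, and Itgax (0.63 and 0.91) below it. These folds carry no GC offsets. No gene passed the edgeR test between genotypes, where the smallest adjusted p was 0.659.

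Levels in Efemp1ki/ki eyecups at 17 months place these differences in a longer course. These CPM carry no GC offsets, while the mean GC trend was 0.233 at 3 months, -0.0956 at 9 months and 0.0909 at 17 months. Its part in the levels below was not tested. At 3, 9 and 17 months Igfbp2 averaged 298 ± 41.3, 105 ± 17.3 and 116 ± 25.0 CPM, and Col1a1 547 ± 91.1, 214 ± 45.5 and 246 ± 63.8 CPM (SD, n = 8, 8 and 7). The 9- and 17-month means of these 2 genes lay within each other's spread. Those of Col8a2, at 67.9 ± 7.59 CPM at 9 months and 95.6 ± 35.5 CPM at 17 months, and of Emilin1, at 13.9 ± 1.38 and 18.96 ± 4.32 CPM, were higher at 17 months, which was not tested here. Lyz2 averaged 102 ± 32.1, 165 ± 23.7 and 393 ± 92.4 CPM at the 3 ages, Itgax 3.70 ± 0.96, 5.74 ± 1.04 and 14.4 ± 2.98 CPM, and C3 76.1 ± 15.7, 128 ± 24.0 and 204 ± 46.2 CPM. The means of these 3 genes were higher at each later age, with 17 months not tested here, while Cfb, at 10.9 ± 2.82, 18.9 ± 7.70 and 20.8 ± 5.53 CPM, had means at 9 and 17 months within each other's spread. Plagl1 averaged 7.28 ± 1.62, 14.4 ± 5.64 and 8.67 ± 2.86 CPM, so that the 17-month level lay near that of 3 months.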

How the data were processed

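Poly(A) RNA was sequenced as stranded libraries (TruSeq Stranded mRNA, per the labels' protocols), and the build was GRCm38.p4, per the submitters' processing notes. The sources used here name no aligner or counter. Per the labels and files, the authors deposited gene-level expected counts, of which 38.6% of values were fractional, and these were rounded. The authors deposited TPM values as well, treated as a score because only protein-coding genes sum to 1000000. Each file had 1 column matching no sample label, which was not used.

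All 45 eyecup libraries were fitted by group with edgeR 4.0.16 (R 4.3.3; TMM, filterByExpr, robust quasi-likelihood test, Benjamini-Hochberg adjustment), which was tested on simulated data. GC offsets came from a spline (5 degrees of freedom) of each library on transcript GC content (longest transcript, GENCODE M21). Steep libraries lay over 3 scaled median absolute deviations from the median trend. limma 3.58.1 and DESeq2 1.42.0 gave alternatives. No pair of libraries agreed within counting noise. Named genes were the 10 smallest p per direction (also among genes called in all 3 fits), the 3 largest folds, the 4 smallest p of each list and the 10 smallest p between genotypes, without predicted genes, plus Efemp1; not every eligible gene is named. Members and lists were chosen with earlier results of these data known.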

Additional observations from a re-analysis of the deposited data

Results flagged for a closer look

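In 8 of 138 groups examined (66 genes and 3 library measures, each at 2 ages), 1 library lay far from the other 7, and chance alone gives such a gap in about 1 of 20 groups. All values here are log2 CPM, and no explanation was tested. Library 7 at 9 months was high in Mx1 at 3.83, where the next library had 1.53, in Ccl7 at 2.94, where the next had 0.366, and in Muc5b at 6.45, where the next had 2.85. Library 4 at 3 months, the one of steepest GC trend, was low in Efemp1 at 7.11, where the next had 7.8, and high in the microfibril gene Mfap2 at 3.88, where the next had 3.4. Library 8 at 3 months was high in Cxcl13 at 1.36, where the next had -0.0366, and in Col12a1 at 7.47, where the next had 7.29. Library 5 at 3 months was low in Irx3 at 3.54, where the next had 3.99.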

How the results depend on the processing

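The count of 2624 genes depended on the setting. It was 371 with GC offsets, 325 with GC offsets and the replicate block, 428 without the steep libraries, 246 by limma on log2(TPM + 1), 5894 by limma voom with quality weights and 6145 with composition covariates. Settings chosen after seeing the data gave 388 with GC and length offsets and 83 with GC offsets without the steep libraries. Of the calls 47.6% were higher with all libraries, 42.3% with GC offsets, 18.7% by limma on TPM and 30.1% with GC offsets without the steep libraries. Leaving out 1 library gave 1671 (without 9-month library 6) to 3409 genes, with 1705 without 3-month library 4. In other settings the count stayed within 1.5 times, from 2103 with only the groups compared to 3301 by DESeq2. Among these, GC offsets with composition covariates gave 2523 genes, far above the 371 with GC offsets alone. A like count did not mean the same genes. That setting shared 452 higher and 483 lower calls with the fit of all libraries, out of 1250 and 1374.

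Calls within the lists numbered 139, and 31 with GC offsets, 33 without the steep libraries, 308 with composition covariates and 100 to 166 without 1 library. The test between genotypes gave 0 calls in every setting except limma voom, with 1044. The GC trend difference of -0.329 ran from -0.358 to -0.245 without 1 library. Of 65 named called genes, 59 kept their call in all 16 fits without 1 library. Efemp1, never called, was at 0.07 with all libraries and at -0.0202 by limma voom, -0.077 on TPM, -0.0492 with GC offsets, -0.0239 with GC offsets and block, -0.0037 with GC offsets and composition, -0.0364 without the steep libraries, -0.0436 with GC and length offsets, -0.1036 with GC offsets without the steep libraries and -0.03 (without 3-month library 4) to 0.1227 (without 9-month library 5) when 1 library was left out. The causes were not tested.

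With the replicate block 2510 genes passed. The numbers did not pair the libraries: same-numbered deviations correlated from -0.457 to 0.200 and no library correlated best with its own number. No library stood apart by its correlation with its group, so that alternative was not run.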

Other observations

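Further lists are set beside 6.94% of all genes higher and 7.63% lower with all libraries. Of 26 cholesterol and fatty acid synthesis genes 5 were lower (19.2%) and none higher at 9 months (median -0.22), with none under GC offsets and 2 lower without the steep libraries. Of 16 heat shock genes 3 were higher (18.8%) and 1 lower (median 0.03), and of 26 unfolded protein response genes 2 were higher and 2 lower (median 0.00). None of these passed under GC offsets. Of 11 lens genes 2 were lower (18.2%; median -1.53, against -2.68 in wild type), with none in the other fits. Of 11 melanocyte genes 1 was lower (median -0.09), and of 15 T and NK cell genes 1 was higher and 1 lower (median 0.32).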
